A study of Homo sapiens with 6 samples.

Results

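The genes described here are 41 hypoxia-inducible and glycolytic genes of PC9OR cells, read after knockdown of GLMP. They were taken by gene symbol from a table of 60664 genes, 1 row per symbol, and each of the 41 was among the 15900 genes that passed the filter on low counts. PC9OR is a human lung cancer cell line, and its parent name PC9 belongs to a lung adenocarcinoma line with an activating EGFR deletion. RNA sequencing gave read counts per gene in 3 libraries labelled si-GLMP, whose genotype is given as GLMP knockdown, and 3 libraries labelled NC, given as control. All 6 libraries came from the same line. The sources used here name no drug and no oxygen level for either group, no small interfering RNA sequence, and no time after transfection. Whether the 3 replicates were separate cultures is not in the labels, so the p-values speak only of the spread between libraries, which may be technical.

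Library totals ran from 19896875 to 22372878 counts. GLMP, which encodes a lysosomal membrane glycoprotein, had 82, 61 and 65 counts in si-GLMP replicates 1 to 3, against 309, 344 and 347 counts in NC replicates 1 to 3. Markers of epithelial and lung adenocarcinoma cells summed to between 9935 and 10925 CPM in si-GLMP and between 11097 and 11422 CPM in NC (CPM, counts scaled to a common library size with TMM factors). Among them EPCAM and CDH1 were called higher (log2 fold change 0.30 each) and KRT7 (-0.27) and EGFR (-0.37) lower by edgeR. The lung lineage markers among them were near 0: NAPSA stayed under 1 CPM in each library and NKX2-1 had 0 counts in each si-GLMP library and 6, 0 and 2 in NC. Of 7 leukocyte markers, LYZ and TYROBP were at 0 counts in each library, and the list summed to between 1.40 and 2.44 CPM in si-GLMP and between 1.60 and 1.91 CPM in NC. The fibroblast list summed to between 10.7 and 12.7 CPM in si-GLMP and between 6.47 and 8.22 CPM in NC, with COL3A1 at 0 counts in each library and COL1A1 called higher by edgeR. The endothelial list summed to between 6.82 and 7.63 CPM in si-GLMP and between 5.01 and 7.72 CPM in NC, and the red cell list to at most 0.188 CPM in si-GLMP and at most 0.221 CPM in NC. Mitochondrially encoded genes took between 5.19% and 5.51% of the counts in si-GLMP, and 6.57%, 8.76% and 6.51% in NC replicates 1 to 3, so that NC replicate 2 stood apart. The part of these markers and of the mitochondrial share in the results was not tested. In bulk RNA, fewer cells of a type and less RNA per cell cannot be told apart.

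Hypoxia-inducible factors (HIFs) are transcription factors made of an oxygen-sensitive alpha subunit, such as HIF1A or EPAS1 (HIF-2 alpha), and a stable partner, ARNT. When oxygen is present, the prolyl hydroxylases EGLN1, EGLN2 and EGLN3 mark the alpha subunit, and the VHL ubiquitin ligase then has it destroyed. When oxygen is short the alpha subunit accumulates and raises the transcription of glucose transporters, glycolytic enzymes, angiogenic factors and EGLN3 itself. Because the alpha subunits are controlled mostly at the protein level, their mRNA does not report their activity. Glycolysis turns glucose into pyruvate, which cancer cells often reduce to lactate and export.

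About as many of these genes rose in si-GLMP as were not called, and nearly all that moved went up. At an adjusted p under 0.05 (edgeR quasi-likelihood test, Benjamini-Hochberg adjustment over all tested genes), 20 of the 41 were higher in si-GLMP, 1 was lower and 20 were not called. Among all tested genes, 12.0% were called higher, 11.3% lower and 23.3% in either direction. The 41 genes were chosen with earlier results of these data known, so their counts beside these shares are description only. The median log2 fold change (log2FC, si-GLMP over NC) was 0.22 over the 41 genes and 0.0035 over all tested genes. In 23 genes every si-GLMP library lay above every NC library and in 1 gene below, where the shares over all tested genes were 18.5% and 18.0%, or 36.5% together. The shares over all tested genes take in genes of every level and were not matched to the levels of the 41. Most changes were small. A called rise with a log2FC over 0.5 was met by 5 genes, EGLN3, SLC2A1, NDRG1, VEGFA and SLC16A3, and by 3.79% of all tested genes. No member was called lower beyond -0.5, against 4.09% of all tested genes.

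The roles differed in their counts and medians, and no test was made between them because genes are not replicates. Of 17 glycolytic enzymes, 8 were higher and 9 not called, with a median log2FC of 0.21. Without NC replicate 1 the count of higher enzymes was 5. Of 4 glucose and lactate transporters, 3 were higher, with a median of 0.50. Of 3 kinases that set flux (PFKFB3, PFKFB4 and PDK1), 2 were higher, with a median of 0.35. This count was 1 if NC replicate 2 or si-GLMP replicate 1 was left out. Of 11 other HIF targets, 6 were higher and 5 not called, with a median of 0.32. With a library left out, this median ran from 0.244 to 0.345 and the count of higher genes from 4 to 7. Of 6 HIF regulators, 1 was higher, 1 lower and 4 not called, with a median of 0.039. This median was 0.010 without NC replicate 3 and 0.077 without si-GLMP replicate 1. The 1 gene in each direction was 16.7% of the role, where all tested genes had 12.0% higher and 11.3% lower.

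**Figure D1:**
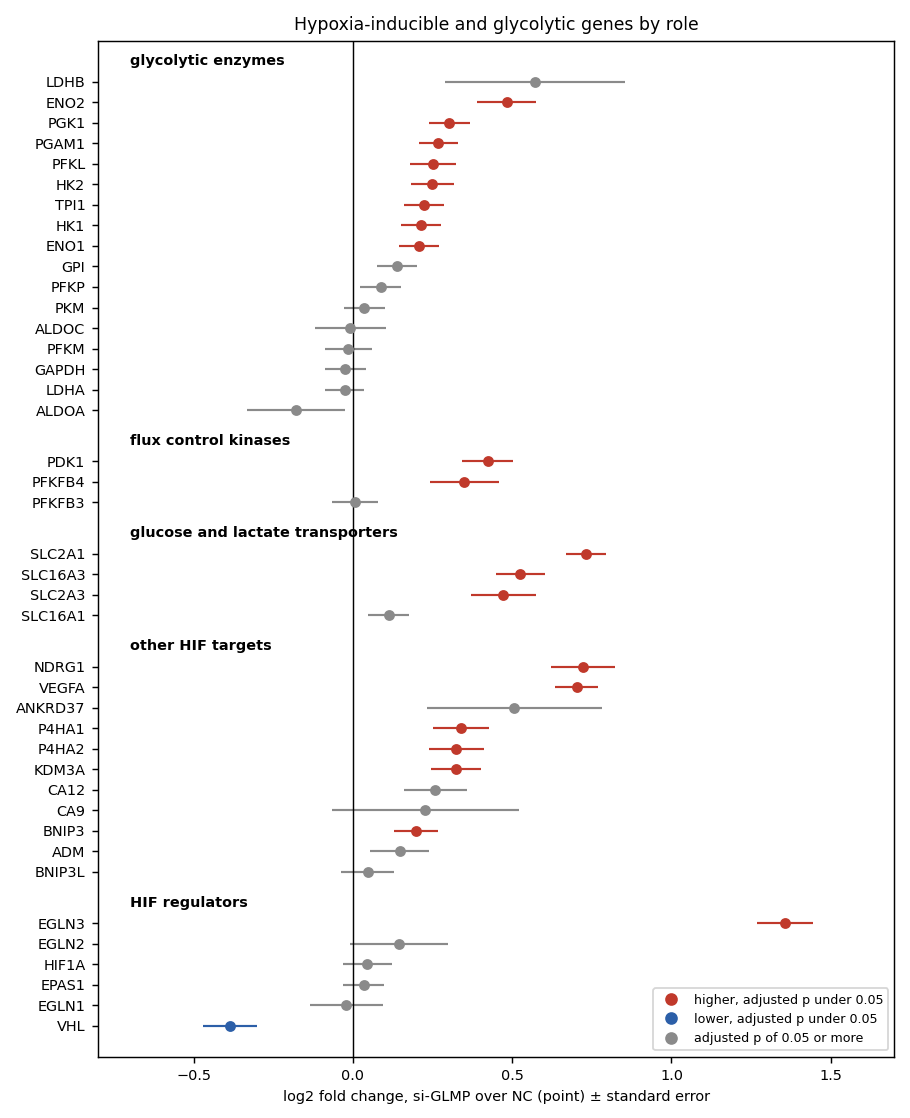
Log2FC of si-GLMP over NC (x axis, point with standard error) for each of the 41 genes, grouped by role and coloured by the edgeR call. The largest value is that of EGLN3 at 1.36 and the lowest that of VHL at -0.39, while 8 of the 17 glycolytic enzymes are called higher with values no larger than 0.48.

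The libraries differed within si-GLMP. As the median over a role of the log2 ratio to the NC mean, the glycolytic enzymes stood at 0.27, 0.11 and 0.19 in si-GLMP replicates 1 to 3, and between -0.014 and 0.0054 in the NC libraries. The transporters stood at 0.65, 0.50 and 0.32 in si-GLMP replicates 1 to 3, and between -0.011 and 0.029 in NC. The other HIF targets were more even, at 0.33, 0.30 and 0.28 in si-GLMP replicates 1 to 3, and between -0.033 and 0.033 in NC. For the HIF regulators the groups overlapped, with 0.031 to 0.059 in si-GLMP and -0.062 to 0.056 in NC. The lowest si-GLMP library was thus replicate 2 for the enzymes and replicate 3 for the transporters.

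**Figure D2:**
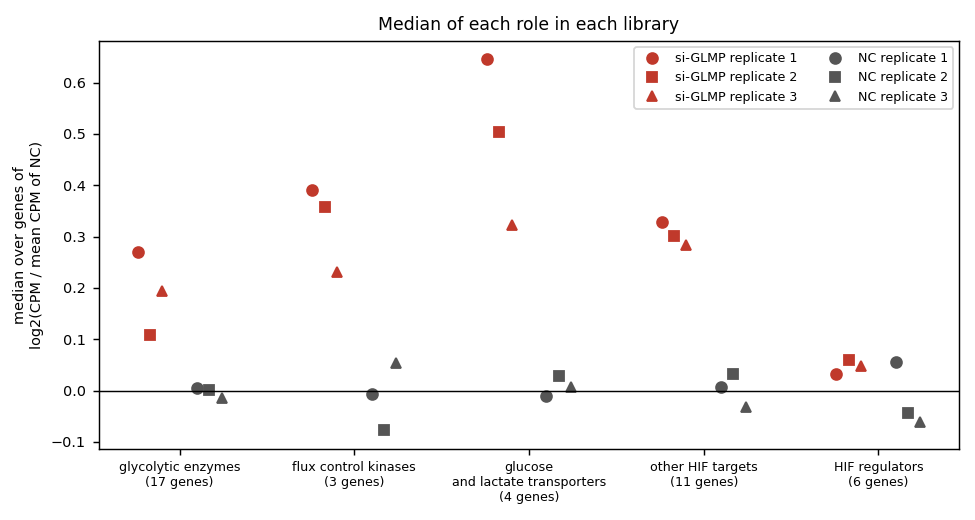
Median over the genes of each role of log2 of a library's CPM over the mean CPM of NC (y axis), 1 symbol per library, si-GLMP to the left of NC in each role. The si-GLMP libraries lie above the NC libraries in 4 of the roles, from 0.11 upwards, and overlap with them for the HIF regulators.

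EGLN3 had the largest change of the 41 genes. EGLN3 encodes a prolyl hydroxylase of HIF alpha subunits and is a HIF target itself (ENSG00000129521, chromosome 14, minus strand; the annotated gene spans 33924231 to 34462774 in GRCh38, GENCODE 29). Its level was 100.9, 97.1 and 74.8 CPM in si-GLMP replicates 1 to 3, against 37.4, 35.3 and 33.8 CPM in NC replicates 1 to 3. The groups lay far apart, with replicate 3 the lowest of the si-GLMP libraries. The log2FC was 1.36 ± 0.09 (SE; edgeR adjusted p = 1.44e-15), a 2.56-fold difference. Its sister enzymes were not called. EGLN1, the main oxygen sensor of most cells, averaged 13.8 ± 1.43 CPM in si-GLMP and 14.0 ± 1.51 CPM in NC (SD, n = 3 each; log2FC -0.020, edgeR adjusted p = 0.927). EGLN2 averaged 6.55 ± 0.661 CPM in si-GLMP and 5.92 ± 1.11 CPM in NC (SD, n = 3 each; log2FC 0.14, edgeR adjusted p = 0.559). The EGLN2 exons share 30.6% of their length with a readthrough gene on the same strand, RAB4B-EGLN2, whose row held 0 counts in each library, so the EGLN2 level is uncertain.

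VHL, the substrate receptor of the ubiquitin ligase that removes hydroxylated HIF alpha, was the 1 member called lower. VHL (ENSG00000134086, chromosome 3, 10141008 to 10152220) had 32.4, 28.1 and 29.1 CPM in si-GLMP replicates 1 to 3, against 40.0, 36.7 and 40.2 CPM in NC replicates 1 to 3. The groups did not overlap, and the log2FC was -0.39 ± 0.09 (SE; edgeR adjusted p = 0.000469). The genes of the alpha subunits were not called. HIF1A had 151.5, 186.8 and 170.3 CPM in si-GLMP and 149.1, 185.7 and 158.4 CPM in NC, with replicate 2 the highest in each group (log2FC 0.045 ± 0.08, edgeR adjusted p = 0.734). EPAS1 averaged 625.0 ± 3.57 CPM in si-GLMP and 610.7 ± 45.6 CPM in NC (SD, n = 3 each), a log2FC of 0.034 ± 0.06 (edgeR adjusted p = 0.761). Per kilobase of exon, EPAS1 made up 72.05% ± 2.07 of the summed level of HIF1A, EPAS1 and HIF3A in si-GLMP and 72.2% ± 1.04 in NC (SD, n = 3 each).

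Set against its sisters per kilobase of exon, EGLN3 took 80.8% ± 3.50 of the summed prolyl hydroxylase level in si-GLMP and 63.2% ± 2.11 in NC (SD, n = 3 each). EGLN1 took 12.55% ± 2.13 in si-GLMP and 25.1% ± 1.04 in NC. The groups did not overlap for either share. The 2 shares are parts of 1 sum and are not separate results, and the EGLN1 level itself was not called (log2FC -0.020). The two-sided exact permutation test over the 6 libraries gave p = 0.1, the smallest it allows with 3 against 3, and 0.224 after Benjamini-Hochberg adjustment over the 38 shares computed. The size of the difference depended on the length used. With the longest transcript as the length, EGLN3 took 89.6% in si-GLMP and 78.2% in NC.

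**Figure D3:**
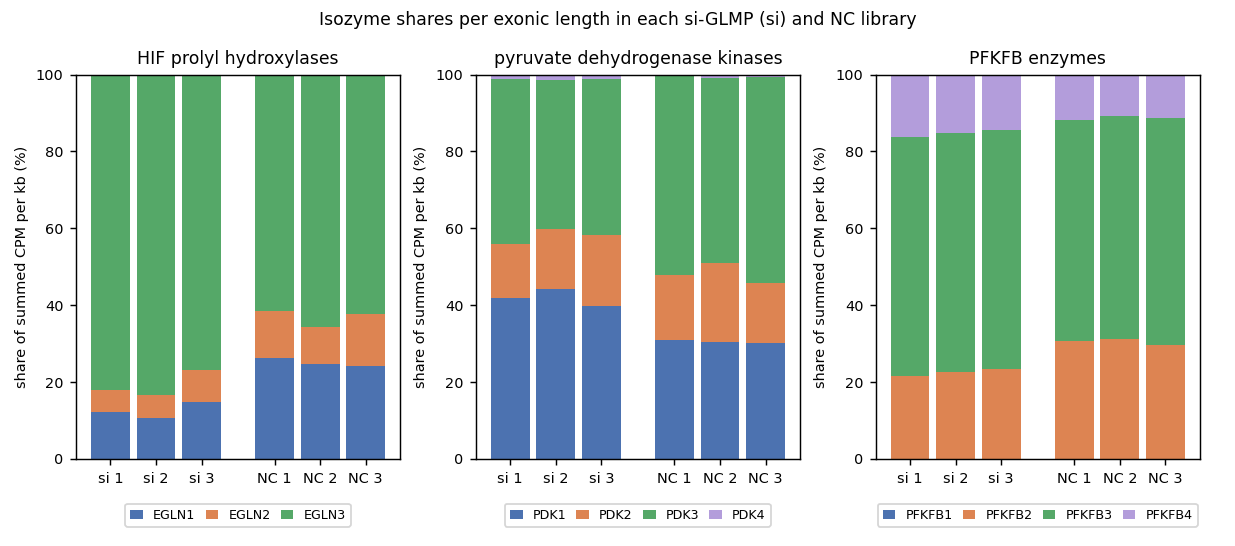
Share of each isozyme (y axis, %) in the summed CPM per kilobase of exon of its family, 1 bar per library, si-GLMP left of NC. EGLN3 and PDK1 take larger shares in the si-GLMP libraries, at 80.8% and 42.0% on average, than in the NC libraries, at 63.2% and 30.5%, and PFKFB2 takes 22.5% against 30.4%.

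HIFs bind a core motif whose letters are ACGTG or GCGTG. The 250 bases before the RefSeq start of a gene (GRCh38.p14) were searched for both on either strand, counting overlapping matches separately, so that CACGTG, which holds ACGTG on both strands, counts as a pair. Promoter windows were found for 35 of the 41 genes, and SLC2A3, SLC16A1, VEGFA, NDRG1, BNIP3L and VHL had none in the table used. Of the 35 genes, 29 (82.9%) held a match in at least 1 window, as did 47.4% of all genes in the promoter table and 43.2% of all windows. A gene with several annotated starts has more windows in which to match. The promoter table also holds genes that did not pass the filter on low counts. Base composition was not matched, and no test was made. Among members called higher the count was 13 of 17, and among those not called 16 of 18. The 4 windows below are shown because they pair a motif-rich promoter of a gene that rose (PGK1) with one of a gene that was not called (LDHA), and the gene with the largest rise (EGLN3) with the classic hypoxia marker (CA9). Capitals mark the matches.
PGK1, chrX:78103998-78104247, plus strand, 3 matches: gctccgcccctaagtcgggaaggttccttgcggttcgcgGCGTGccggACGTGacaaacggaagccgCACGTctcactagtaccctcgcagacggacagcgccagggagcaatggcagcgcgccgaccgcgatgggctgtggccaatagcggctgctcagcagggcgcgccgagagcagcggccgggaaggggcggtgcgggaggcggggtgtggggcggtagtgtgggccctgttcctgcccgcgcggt
LDHA, first of its 2 windows, chr11:18394313-18394562, plus strand, 5 matches: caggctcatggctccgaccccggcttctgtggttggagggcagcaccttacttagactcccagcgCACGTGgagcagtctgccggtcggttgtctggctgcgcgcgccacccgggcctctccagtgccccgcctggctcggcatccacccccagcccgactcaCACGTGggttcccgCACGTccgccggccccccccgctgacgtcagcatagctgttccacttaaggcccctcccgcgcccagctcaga
EGLN3, chr14:33951075-33951324, minus strand, 0 matches: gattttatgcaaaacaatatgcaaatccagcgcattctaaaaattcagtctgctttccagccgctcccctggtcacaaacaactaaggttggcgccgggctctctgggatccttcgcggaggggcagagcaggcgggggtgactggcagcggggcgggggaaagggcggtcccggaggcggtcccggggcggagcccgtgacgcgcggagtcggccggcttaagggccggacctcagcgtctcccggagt
CA9, chr9:35673678-35673927, plus strand, 1 match: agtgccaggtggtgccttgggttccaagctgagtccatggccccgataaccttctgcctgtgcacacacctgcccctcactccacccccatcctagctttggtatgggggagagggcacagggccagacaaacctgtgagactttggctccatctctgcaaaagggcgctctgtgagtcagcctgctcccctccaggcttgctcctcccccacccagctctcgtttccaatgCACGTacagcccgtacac
PGK1 and LDHA were picked for their matches and calls, and EGLN3 for its rise, so these windows cannot show whether matches follow calls. A window without the motif says only that these letters are not in it, and enhancers and introns were not searched.

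At the entry and exit of the pathway, 3 of 4 transporters rose. SLC2A1 (GLUT1, ENSG00000117394), the main glucose importer of many tumour cells, had 414.3, 396.9 and 387.7 CPM in si-GLMP replicates 1 to 3, against 238.8, 236.3 and 247.2 CPM in NC replicates 1 to 3. The 2 groups lay far apart with little spread, and the log2FC was 0.73 ± 0.06 (SE; edgeR adjusted p = 1.04e-13). SLC2A3 (GLUT3), a glucose importer of higher affinity, had 32.7, 28.3 and 23.0 CPM in si-GLMP, against 20.1, 21.4 and 19.1 CPM in NC (log2FC 0.47 ± 0.10, edgeR adjusted p = 0.000374). Its near copy SLC2A14 had no more than 5 counts in any library. SLC16A3 (MCT4), which exports lactate from glycolytic cells, had 182.6, 173.5 and 165.9 CPM in si-GLMP, against 129.9, 101.0 and 131.6 CPM in NC (log2FC 0.53 ± 0.08, edgeR adjusted p = 1.29e-06). The low NC value is that of replicate 2, and without this library the log2FC was 0.41. SLC16A1 (MCT1), which carries lactate in either direction, was not called, with 336.9, 367.3 and 324.9 CPM in si-GLMP and 302.1, 338.2 and 312.2 CPM in NC (log2FC 0.11 ± 0.06, edgeR adjusted p = 0.226). With the trend on GC content and transcript length removed it was called (0.14, edgeR adjusted p = 0.0433).

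**Figure D4:**
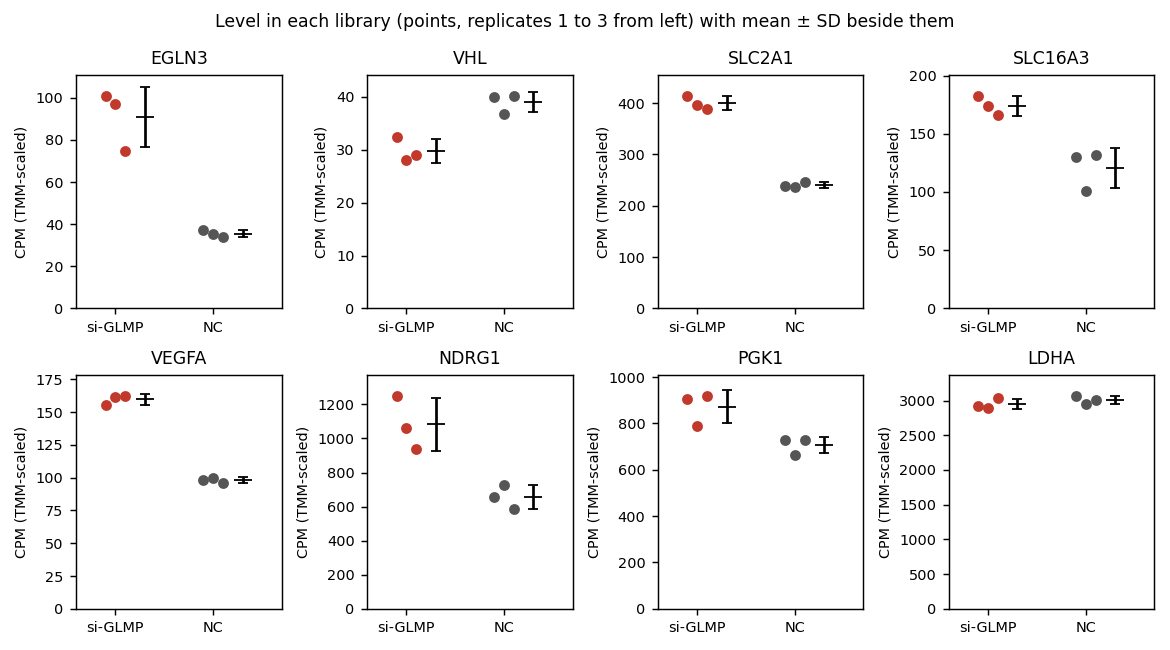
Level in CPM (y axis, from 0) in each library for 8 of the genes, with si-GLMP left of NC and the mean ± SD (n = 3) beside the points. EGLN3, SLC2A1, SLC16A3, VEGFA, NDRG1 and PGK1 show no overlap with si-GLMP above NC, VHL shows no overlap with si-GLMP below NC, and LDHA overlaps.

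The 8 enzymes called higher were spread over 6 steps of glycolysis, and each rose by less than 0.5 on the log2 scale. ENO2, the enolase typical of neurons and often induced by hypoxia, had 34.1, 28.1 and 30.6 CPM in si-GLMP replicates 1 to 3, against 22.3, 22.2 and 21.9 CPM in NC replicates 1 to 3. Its log2FC of 0.48 ± 0.09 was the largest among the called enzymes (SE; edgeR adjusted p = 5.53e-05). ENO1, the common enolase, had a log2FC of 0.21 (edgeR adjusted p = 0.0121), and was far more abundant, so that ENO2 took only 1.59% of the enolase level per kilobase in si-GLMP and 1.32% in NC. PGK1, which makes ATP in the payoff phase of the pathway, had 906.2, 789.4 and 917.7 CPM in si-GLMP, against 726.7, 665.5 and 726.2 CPM in NC (log2FC 0.30 ± 0.07, edgeR adjusted p = 0.000304). PGAM1, the phosphoglycerate mutase, had 676.2, 629.3 and 651.4 CPM in si-GLMP, against 541.5, 544.5 and 538.7 CPM in NC (log2FC 0.27 ± 0.06, edgeR adjusted p = 0.000732). For PGK1 and PGAM1 the lowest si-GLMP value was that of replicate 2, and it still lay above each NC library.

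Both hexokinases on the list, which trap glucose in the cell, rose. HK2, the hexokinase induced in many tumours, had 203.3, 200.5 and 172.3 CPM in si-GLMP, against 167.7, 159.1 and 157.9 CPM in NC (log2FC 0.25 ± 0.07, edgeR adjusted p = 0.00427). HK1, the housekeeping form, had a log2FC of 0.21 (edgeR adjusted p = 0.00917). HKDC1, a hexokinase outside the list, was not called (log2FC 0.082, edgeR adjusted p = 0.398). It averaged 208.7 CPM in si-GLMP and 197.1 CPM in NC. TPI1, the triose phosphate isomerase, averaged 1027 ± 48.3 CPM in si-GLMP and 879.7 ± 35.5 CPM in NC (SD, n = 3 each; log2FC 0.22, edgeR adjusted p = 0.00598). PFKL, the liver-type phosphofructokinase, averaged 91.3 ± 7.57 CPM in si-GLMP and 76.7 ± 3.34 CPM in NC (SD, n = 3 each; log2FC 0.25, edgeR adjusted p = 0.00785). The calls of HK1, ENO1 and PFKL depended on single libraries. Without NC replicate 1 the edgeR adjusted p was 0.103 for HK1, 0.0560 for ENO1 and 0.0538 for PFKL. HK1 also missed the threshold without NC replicate 3 (0.0511), ENO1 without si-GLMP replicate 1 (0.0600), and PFKL without si-GLMP replicate 1 (0.0530) or 3 (0.0513), each by edgeR.

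The 2 most abundant enzymes were not called. Per kilobase of exon, GAPDH was highest, at 1130 CPM per kb in si-GLMP and 1149 CPM per kb in NC, followed by LDHA at 475.5 CPM per kb in si-GLMP and 484.2 CPM per kb in NC. LDHA, which turns pyruvate into lactate and is a textbook HIF target, had 2921, 2897 and 3040 CPM in si-GLMP replicates 1 to 3, against 3064, 2951 and 3007 CPM in NC replicates 1 to 3. The groups overlapped (log2FC -0.026 ± 0.06, edgeR adjusted p = 0.816). GAPDH had a log2FC of -0.024 ± 0.06 (edgeR adjusted p = 0.842) and PKM, the pyruvate kinase whose splice forms a gene count does not separate, 0.035 ± 0.06 (edgeR adjusted p = 0.753). GPI, the glucose phosphate isomerase, had 461.3, 417.3 and 465.8 CPM in si-GLMP and 408.7, 423.5 and 389.3 CPM in NC (log2FC 0.14 ± 0.06, edgeR adjusted p = 0.114). It was called without si-GLMP replicate 2 (edgeR adjusted p = 0.0252) and once the trend on GC and length was taken out (0.00815). PFKP and PFKM, the platelet and muscle phosphofructokinases, had log2FC values of 0.088 and -0.015 and were not called. ALDOC, an aldolase, had -0.0077.

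The aldolase ALDOA and the lactate dehydrogenase LDHB had few counts. ALDOA had 15.96, 11.4 and 13.5 CPM in si-GLMP and 14.3, 19.7 and 12.2 CPM in NC, the highest value being that of NC replicate 2 (log2FC -0.18 ± 0.15, edgeR adjusted p = 0.461). LDHB had 36, 35 and 42 counts in si-GLMP and 21, 20 and 36 counts in NC (log2FC 0.57 ± 0.28, edgeR adjusted p = 0.147). By GENCODE 29, ALDOA has 42.3% of its exons' length in a second gene on the same strand, AC093512.2, which held between 80 and 83 counts in si-GLMP and between 53 and 79 counts in NC. For LDHB the share is 33.4%, with AC010197.2, which held 0 counts in each library. How reads in shared exons were counted is not given in the sources used here, and the part of the overlap in these low levels was not tested. Processed pseudogenes, which can take reads from their parents, held few reads: their summed counts were at most 0.149% of the counts of GAPDH, 0.0762% of LDHA and 0.377% of PGAM1, and between 2.33% and 3.30% of TPI1. The shares were larger for the low genes, at most 1.45% of the counts of ALDOA and between 5% and 11.4% of those of LDHB, for LDHB from no more than 4 pseudogene counts in any library.

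**Figure D5:**
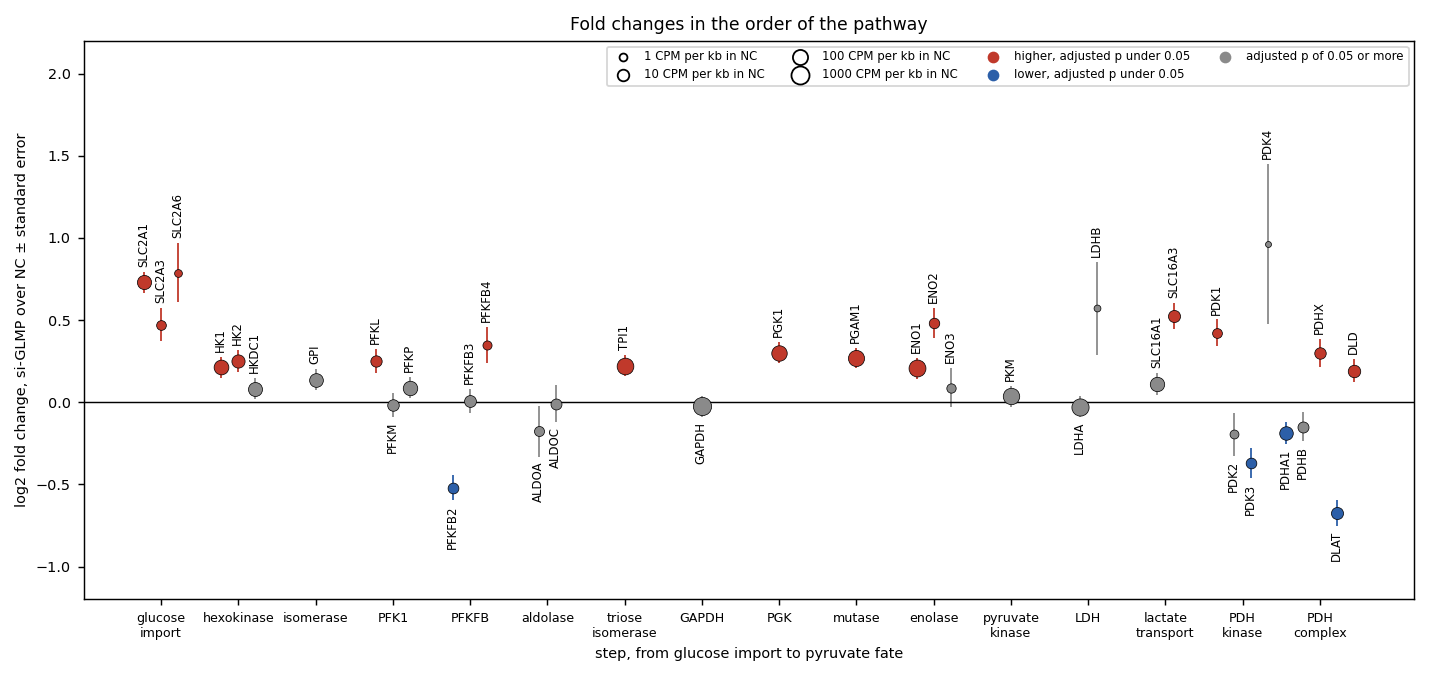
Log2FC of si-GLMP over NC with its standard error (y axis) for members and further genes, placed in the order of the pathway from glucose import to pyruvate fate (x axis), with the marker size rising with the NC level per kilobase. Values reach 0.79 (SLC2A6, 3.28 CPM in NC) and 0.73 (SLC2A1, 240.8 CPM in NC) for the glucose transporters. They lie close to 0 at GAPDH, PKM and LDHA. Among the kinases and subunits of pyruvate dehydrogenase they run from -0.67 (DLAT, called lower) to 0.96 (PDK4, not called).

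Of the enzymes that set flux from the side, PDK1 and PFKFB4 rose and PFKFB3 was not called. PDK1, which phosphorylates and blocks pyruvate dehydrogenase, had 67.1, 78.6 and 60.2 CPM in si-GLMP, against 51.0, 53.2 and 49.5 CPM in NC (log2FC 0.42 ± 0.08, edgeR adjusted p = 5.53e-05). PFKFB4, which makes and breaks down the phosphofructokinase activator fructose 2,6-bisphosphate, had 19.0, 17.8 and 16.3 CPM in si-GLMP, against 14.6, 12.6 and 14.4 CPM in NC (log2FC 0.35 ± 0.11, edgeR adjusted p = 0.0139). It missed the threshold without NC replicate 2 (edgeR adjusted p = 0.0801) or si-GLMP replicate 1 (0.0698). PFKFB3, the form with the strongest kinase activity, averaged 72.4 ± 1.05 CPM in si-GLMP and 72.05 ± 3.94 CPM in NC (SD, n = 3 each; log2FC 0.0067, edgeR adjusted p = 0.964).

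Of their relatives outside the list, PFKFB2 and PDK3 fell. PDK2 (log2FC -0.19, edgeR adjusted p = 0.314) and PDK4 (0.96, edgeR adjusted p = 0.157, at 17 counts or fewer in each library) were not called, and PFKFB1 was not tested. PFKFB2, named from the further genes of glucose metabolism, had 42.5, 44.0 and 44.5 CPM in si-GLMP, against 63.5, 60.8 and 63.4 CPM in NC (log2FC -0.52 ± 0.08, edgeR adjusted p = 3.34e-07). PDK3, another pyruvate dehydrogenase kinase, had 22.9, 22.9 and 20.5 CPM in si-GLMP, against 28.3, 28.0 and 29.4 CPM in NC (log2FC -0.37 ± 0.09, edgeR adjusted p = 0.00173). Neither pair of groups overlapped. Per kilobase, PDK1 took 42.0% ± 2.22 of the kinase level of its family in si-GLMP and 30.5% ± 0.483 in NC, and PDK3 took 40.8% ± 2.07 in si-GLMP and 51.2% ± 2.79 in NC (SD, n = 3 each). PFKFB2 took 22.5% ± 0.841 of its family in si-GLMP and 30.4% ± 0.794 in NC, and PFKFB4 took 15.2% ± 0.940 in si-GLMP and 11.2% ± 0.517 in NC (SD, n = 3 each). For these 4 shares the exact permutation p was 0.1, the smallest possible, and 0.224 after adjustment over the 38 shares.

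Among 13 genes of pyruvate fate, chosen with earlier results of these data known, 3 were higher and 3 lower, with a median log2FC of -0.056. Without NC replicate 1 the higher count was 1. Among all tested genes, 12.0% were called higher and 11.3% lower. DLAT, the acetyltransferase core of the pyruvate dehydrogenase complex, had 43.2, 40.4 and 39.1 CPM in si-GLMP, against 62.6, 68.3 and 65.0 CPM in NC (log2FC -0.67 ± 0.08, edgeR adjusted p = 7.22e-10). PDHX, the component that tethers the dehydrogenase DLD to the complex, had a log2FC of 0.30 (edgeR adjusted p = 0.00645), with 0.0911 without NC replicate 1. PC, pyruvate carboxylase, which feeds pyruvate into oxaloacetate, rose to 55.2 ± 3.01 CPM in si-GLMP, against 41.6 ± 1.10 CPM in NC (SD, n = 3 each; log2FC 0.41, edgeR adjusted p = 6.24e-05). Of the other subunits of the complex, PDHA1 was called lower (log2FC -0.19, edgeR adjusted p = 0.0305) and DLD higher (0.19, edgeR adjusted p = 0.0453). PDHB was not called (-0.15, edgeR adjusted p = 0.227). The subunits of 1 complex thus had log2FC values of opposite sign.

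Of the other HIF targets, VEGFA and NDRG1 had the largest changes. VEGFA, the main angiogenic growth factor, had 155.2, 161.8 and 162.3 CPM in si-GLMP replicates 1 to 3, against 98.4, 100.1 and 96.1 CPM in NC replicates 1 to 3. The spread within each group was small, and the log2FC was 0.70 ± 0.07 (SE; edgeR adjusted p = 2.45e-12). NDRG1, a stress-responsive cytoplasmic protein, had 1249, 1059 and 940.5 CPM in si-GLMP, against 659.2, 727.2 and 583.2 CPM in NC (log2FC 0.72 ± 0.10, edgeR adjusted p = 0.000180). The groups did not overlap, but each spread widely. KDM3A, a histone H3 lysine 9 demethylase, averaged 51.5 ± 2.74 CPM in si-GLMP and 41.2 ± 1.82 CPM in NC (SD, n = 3 each; log2FC 0.32, edgeR adjusted p = 0.00157). P4HA1 and P4HA2, catalytic subunits of the collagen prolyl hydroxylases, had log2FC values of 0.34 (edgeR adjusted p = 0.00248) and 0.32 (edgeR adjusted p = 0.00356). The P4HA1 call was lost without NC replicate 3 (edgeR adjusted p = 0.0754).

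BNIP3, a mitochondrial receptor for mitophagy, had 114.0, 119.1 and 127.6 CPM in si-GLMP, against 107.8, 108.4 and 98.2 CPM in NC (log2FC 0.20 ± 0.07, edgeR adjusted p = 0.0294). The call was lost by edgeR without NC replicate 1 (adjusted p = 0.0630), NC replicate 3 (0.209) or si-GLMP replicate 3 (0.176). Its relative BNIP3L was not called (log2FC 0.046, edgeR adjusted p = 0.746). The carbonic anhydrases, which buffer the pH outside the cell, were not called. CA9 had 18.1, 11.1 and 21.5 CPM in si-GLMP and 13.3, 17.6 and 12.5 CPM in NC, with wide overlap (log2FC 0.23 ± 0.29, edgeR adjusted p = 0.667). Without si-GLMP replicate 2, its lowest library, CA9 had a log2FC of 0.46 (edgeR adjusted p = 0.0143), and without si-GLMP replicate 3, its highest, 0.020 (edgeR adjusted p = 0.961). CA9 shares 38.5% of its exonic length with ARHGEF39 on the opposite strand, and reads of these genes cannot be told apart where strand was not used. CA12 just missed the threshold, with 23.8, 23.5 and 21.1 CPM in si-GLMP and 17.8, 21.3 and 18.2 CPM in NC (log2FC 0.26 ± 0.10, edgeR adjusted p = 0.0519). ADM, the vasodilator peptide adrenomedullin, had a log2FC of 0.15 (edgeR adjusted p = 0.268), which was 0.039 when si-GLMP replicate 1 was left out (edgeR adjusted p = 0.831) and 0.27 when si-GLMP replicate 3 was (edgeR adjusted p = 0.0532). ANKRD37, a small ankyrin repeat protein, had 37, 35 and 42 counts in si-GLMP and 26, 24 and 31 counts in NC (log2FC 0.51 ± 0.27, edgeR adjusted p = 0.190), and 35.2% of its exonic length lies opposite UFSP2.

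Further genes of the pathway, 105 in all, were chosen with earlier results of these data known, so their counts are description only. Among all tested genes, 12.0% were called higher and 11.3% lower. Of the 92 further genes tested, 29 were higher, 6 lower and 57 not called, with a median log2FC of 0.099. Without NC replicate 1 the higher count was 18, and the lower count was 3 if NC replicate 3 or si-GLMP replicate 3 was left out. Of 37 tested further HIF targets, 16 were higher and 2 lower, with a median of 0.18. The lower count was 1 without NC replicate 1, NC replicate 2 or si-GLMP replicate 2, and 0 by edgeR without NC replicate 3 or si-GLMP replicate 3. ANGPTL4, an inhibitor of lipoprotein lipase, had 28.9, 25.1 and 26.2 CPM in si-GLMP, against 9.07, 7.33 and 8.82 CPM in NC (log2FC 1.67 ± 0.11, edgeR adjusted p = 9.91e-18). STC2, the secreted glycoprotein stanniocalcin 2, averaged 397.7 ± 17.6 CPM in si-GLMP and 217.0 ± 3.63 CPM in NC (SD, n = 3 each; log2FC 0.87, edgeR adjusted p = 2.15e-16). PLOD2, a collagen lysyl hydroxylase, had a log2FC of 0.80 (edgeR adjusted p = 1.18e-09), and TFRC, the transferrin receptor, 0.54 (edgeR adjusted p = 2.77e-09). ANGPTL4 is also a target of PPAR receptors and STC2 of ATF4.

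Of 15 further genes of the HIF machinery, 2 were higher and 0 lower by edgeR, with a median of 0.075. The higher share, 13.3%, was near the 12.0% of all tested genes. RBX1, the RING subunit of the VHL ligase, had a log2FC of 0.23 (edgeR adjusted p = 0.0415), and its call was lost without any 1 of the 6 libraries (edgeR adjusted p up to 0.145). HIF1A-AS3, a transcript on the strand opposite HIF1A, was low, with 30, 36 and 31 counts in si-GLMP and 7, 10 and 18 counts in NC (log2FC 1.48 ± 0.35, edgeR adjusted p = 0.000969). In the gene models used here, the exons of HIF1A shared 2.27% of their length with HIF1A-AS1 and 2.87% with AL137129.1. No exonic overlap of HIF1A with HIF1A-AS3 was listed. The strand setting of the counts is not given in the sources used here. Whether reads of HIF1A were counted for HIF1A-AS3 was not tested. ARNT, the stable HIF partner, had a log2FC of -0.092 (edgeR adjusted p = 0.474). HIF1AN, the asparagine hydroxylase that limits HIF activity, had -0.0060 (edgeR adjusted p = 0.965); these 2 genes were chosen for their role after their values were seen.

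Of 20 tested further genes of glucose metabolism, 4 were higher (20%) and 1 lower (5%), with a median of 0.073. Among all tested genes the shares were 12.0% and 11.3%. The higher count for glucose metabolism was 2 without any 1 of the NC replicates and 1 without si-GLMP replicate 3. SLC2A6, a minor glucose transporter, had 6.64, 5.70 and 4.74 CPM in si-GLMP, against 3.36, 2.54 and 3.94 CPM in NC (log2FC 0.79 ± 0.18, edgeR adjusted p = 0.000639). LDHC, the lactate dehydrogenase of the testis, had no more than 29 counts in any library (log2FC 1.35, edgeR adjusted p = 0.00777, and 0.0650 without si-GLMP replicate 3). G6PC3, a glucose-6-phosphatase, had 0.23 (edgeR adjusted p = 0.0394), a call kept by edgeR in only 1 of 6 fits with a library left out. In the pentose phosphate pathway, which branches off after hexokinase, 4 of 7 genes were higher and 0 lower by edgeR, with a median of 0.19. RPIA, the ribose phosphate isomerase, had 27.2, 27.4 and 25.4 CPM in si-GLMP, against 18.3, 16.8 and 19.7 CPM in NC (log2FC 0.55 ± 0.10, edgeR adjusted p = 1.44e-05). TALDO1, transaldolase, had a log2FC of 0.31 (edgeR adjusted p = 0.000247). TKT, transketolase, had 0.19 (edgeR adjusted p = 0.0208) and PGD, the phosphogluconate dehydrogenase, 0.19 (edgeR adjusted p = 0.0213), and both calls were lost by edgeR without NC replicate 1 (adjusted p = 0.140 for TKT and 0.171 for PGD), without NC replicate 3 (0.0829 for TKT and 0.118 for PGD) and without si-GLMP replicate 3 (0.0502 for TKT and 0.0706 for PGD). TKT also missed the threshold without si-GLMP replicate 1 (edgeR adjusted p = 0.0691). The count for this pathway was 2 without NC replicate 1, NC replicate 3 or si-GLMP replicate 3.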

How the data were processed

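Read counts per gene, as whole numbers, were deposited by the authors in a table of 60664 genes and 6 libraries; alignment with HISAT2 to GRCh38 is named in the submitters' processing notes. For the counting step, the tool, gene models and use of strand were not given in the sources used here. Each library column was matched to its sample by name. The counts were tested with edgeR 4.0.16 (R 4.3.3): genes passing filterByExpr with a minimum count of 10, TMM scaling, the quasi-likelihood test of si-GLMP against NC, and Benjamini-Hochberg adjustment over the 15900 genes tested, with a threshold of 0.05. Fold changes are si-GLMP over NC on the log2 scale. CPM values are scaled by TMM factors. Exonic lengths and overlaps came from GENCODE 29, whose genes matched 58396 of the identifiers, and promoter sequences from RefSeq (GRCh38.p14).

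On simulated counts for this comparison and its 15900 genes, the test called 21 of 50 genes changed 1.3-fold, 35 of 50 changed 1.5-fold, 45 of 50 changed 2-fold and 49 of 50 changed 3-fold, and 7 unchanged genes. The simulation changed only 50 genes at each fold, where 3710 genes were called in the data. It also gave each gene the same relative spread between libraries. Its rates may therefore differ from those in the data. Library totals were between 19896875 and 22372878 counts, and 3 counts, taken as the limit of detection, correspond to between 0.133 and 0.150 CPM. The limit of detection covers counting error only, while the standard errors from edgeR also take in the spread between libraries. The alternatives were DESeq2 1.42.0, limma-voom 3.58.1, other scalings and filters, a fold threshold, a replicate block, removal of a trend on GC content and length, another gene length, and each library left out.

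The members and gene lists were chosen with earlier results of these data known. Genes given in full were GLMP, all HIF regulators, transporters and flux control kinases, up to 6 enzymes and up to 6 other HIF targets with the smallest adjusted p, and up to 4 called genes of each further list with the smallest adjusted p. Outside this rule, values or counts by library were also given for the uncalled LDHA, GPI, ALDOA, LDHB, CA9, CA12 and ANKRD37.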

Additional observations from a re-analysis of the deposited data

How the results depend on the processing

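Over 15 alternative fits, 15 of the 21 called members kept their call in each; the 6 that did not, HK1, PFKL, ENO1, PFKFB4, P4HA1 and BNIP3, lost it when single libraries were left out. CA12, GPI, SLC16A1 and CA9 were called in some fits. Members called higher ranged from 16 to 22 with a library left out and from 20 to 23 under other tests, scalings, filters and corrections. With a library left out, called enzymes ranged from 5 to 9, flux control kinases from 1 to 2, and further genes from 18 to 28 higher and from 3 to 7 lower. Requiring an absolute log2 fold change over 0.5 left 602 higher and 651 lower of all genes, 5 higher and 0 lower members, 0 enzymes, 0 flux control kinases, 2 other HIF targets and 0 lower HIF regulators by edgeR, and 13 higher and 2 lower further genes. With the longest transcript as length, the difference in share was 0.201 points for ENO2, 11.5 for EGLN3 and -6.78 for EGLN1.

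Of the 20 members that were not called, 11 changed sign in at least 1 fit and 9 in none. With a library left out, the log2 fold change ran from -0.068 to 0.029 for PFKM, -0.32 to 0.038 for ALDOA, -0.10 to 0.13 for ALDOC, -0.055 to 0.028 for GAPDH, -0.0075 to 0.092 for PKM, -0.029 to 0.051 for PFKFB3, -0.030 to 0.14 for HIF1A, -0.00059 to 0.098 for EPAS1, -0.081 to 0.074 for EGLN1 and -0.00085 to 0.23 for EGLN2. Without a change of sign, it ran from 0.026 to 0.12 for PFKP, 0.061 to 0.16 for SLC16A1, 0.020 to 0.46 for CA9 and 0.039 to 0.27 for ADM. It was 0.0019 for ALDOC under upper-quartile scaling. With the GC and length trend removed it was 0.013 for PFKM, 0.016 for LDHA and 0.030 for EGLN1, and 0.013, 0.015 and 0.030 with the replicate block as well. The cause was not tested.

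Libraries with the same replicate number shared little beyond it: the correlations of their deviations were 0.0388, 0.0263 and 0.00128, under the 0.1 required for pairing, and NC replicate 3 correlated best with si-GLMP replicate 2. With the replicate block, 21 members were higher and 1 lower, among 2053 higher and 1921 lower genes. Among the members, LDHB and ANKRD37 had the fewest counts, at 42 or fewer in each library, and the further genes LDHC, HIF1A-AS3 and PDK4 had 36 or fewer.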
